A study of Mus musculus with 12 samples.

Results

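The mature arms of miR-21a and miR-210 were followed in mouse stem cells paused by mTOR inhibition. They were chosen by name, as the rows for the 5p and 3p arm of each hairpin, which gives 4 rows of the 1978 in the count files. Of these 4, miR-21a-5p and miR-210-3p passed the filter on low counts, among 206 miRNAs that did. The arms miR-21a-3p and miR-210-5p fell below it and are described by their counts.

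Small RNA was sequenced from 4 groups: paused embryonic stem cells (ESC) of the E14 line, control ESC of the same line, paused trophoblast stem cells (TSC), which give rise to placenta, and control TSC. The paused groups were held in a dormant state by inhibiting mTOR, the kinase that couples growth to nutrient supply, and the control groups carry the label WT. The inhibitor, its dose and the length of treatment are not given in the labels, and the TSC line is not named. Each group has 3 samples, but the file of replicate 3 equals that of replicate 2 at all 1978 rows in each of the 4 groups, so the pair was counted as 1 library (n = 2 libraries per group, 8 in all). The labels do not say that these came from separate cultures, so the p-values measure only the spread between libraries, which may be technical. The edgeR test pools that spread over the tested miRNAs and the 4 groups. Its p therefore does not measure the spread of 1 miRNA's own libraries.

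Total counts per library ran from 13607 to 115492, and both extremes were control libraries. Levels are in CPM, which relates each count to the TMM-scaled total of its library. A count of 0 allows up to 3 counts, which is 26.0 CPM at the greatest depth and 220 CPM at the smallest, before scaling. Intervals and floors cover counting error only. Of the early embryonic stem cell markers, mainly the miR-290 family cluster, the summed level was 598439 to 620985 CPM in paused ESC, 542641 to 567948 CPM in control ESC, 516655 to 544602 CPM in paused TSC and 515173 to 772480 CPM in control TSC. The sums overlapped between ESC and TSC in control cells and were higher in ESC in paused cells. Within the list, miR-302b-3p, miR-302d-3p and miR-367-3p had 28, 22 and 40 pooled counts in control ESC against 2, 2 and 0 in control TSC. The trophoblast markers, led by miR-322-5p, summed to 1484 to 1531 CPM in paused ESC, 10528 to 11567 CPM in control ESC, 74110 to 89451 CPM in paused TSC and 146324 to 178470 CPM in control TSC.

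miR-21 is a stress-responsive miRNA whose gene is switched on by AP-1 and STAT3, and it represses Pdcd4, an inhibitor of translation. miR-210 is the best-known hypoxia miRNA: the factor HIF-1 drives its gene, and it represses Iscu, an assembly factor for iron-sulphur clusters in mitochondria. mTOR activity is known to raise the synthesis of HIF-1 alpha.

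The mature sequences show which product each row counts and how the leading arms differ from their closest relatives. They are from RefSeq (GRCm38.p6), are written 5′ to 3′ and have the seed, bases 2 to 8, in capitals.

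mmu-miR-21a-5p: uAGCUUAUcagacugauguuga
mmu-miR-21a-3p: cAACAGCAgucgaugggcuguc
mmu-miR-210-5p: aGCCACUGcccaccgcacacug
mmu-miR-210-3p: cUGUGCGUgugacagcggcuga
mmu-miR-21b: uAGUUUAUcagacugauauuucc
mmu-miR-21c: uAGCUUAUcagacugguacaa

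All 4 members are 22 bases long. GC content was 36.4% for miR-21a-5p and 59.1% for miR-21a-3p, against 68.2% for miR-210-5p and 63.6% for miR-210-3p. All 4 seeds differ, so the members form no seed family with each other. miR-21a-5p shares its seed with miR-21c, while the seeds of the other 3 members are shared with no other mature miRNA of the RefSeq table. Counted from 1 at the 5′ end of miR-21a-5p, miR-21c differs from it by A16G, G18A, U19C, U20A and G21A. miR-21b differs by C4U, which lies in the seed, and by G18A, G21U and A22C. The rows for miR-21b and miR-21c held 0 counts in all 8 libraries, as did both arms of miR-590, so no counts of these relatives stand beside those of miR-21a-5p.

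The miR-21a arms lie on the minus strand of chromosome 11, miR-21a-5p at chr11:86584120-86584141 and miR-21a-3p at chr11:86584082-86584103 (GRCm38). The hairpin Mir21a overlaps Vmp1, a gene of autophagy, on the same strand: it lies in a UTR exon of 1 Vmp1 transcript, 202 bp from the 3′ end of the gene. The miR-210 arms lie on the minus strand of chromosome 7, miR-210-5p at chr7:141221445-141221466 and miR-210-3p at chr7:141221407-141221428. The hairpin Mir210 overlaps no other annotated gene, and Rassf7, on the opposite strand, lies 2726 bp away.

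miR-21a-5p, the arm that carries the known miR-21 targeting, was higher in paused TSC than in control TSC, whereas in ESC no change passed the test. It had 7440 and 11763 CPM in paused TSC, against 6229 and 3371 CPM in control TSC. Both paused TSC libraries were above both control TSC libraries, though 7440 and 6229 CPM lie close together. The means were 9602 ± 3057 CPM in paused TSC and 4800 ± 2021 CPM in control TSC (SD, n = 2 each), a log2 fold change of 0.97 ± 0.34 (SE, 95% interval 0.31 to 1.62; edgeR quasi-likelihood test, adjusted p = 0.0294). This was the 7th highest fold change of the 206 tested. Of these, 1.94% were called higher and 18.9% called in either direction. The paused and control TSC libraries did not overlap in 48.5%, and in 12.6% the paused ones were the higher. Bulk counts cannot tell fewer cells of a type from less RNA per cell.

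The libraries of 1 group differed by more than counting error. In paused TSC the 95% counting intervals of miR-21a-5p were 6393 to 8610 and 10623 to 12993 CPM, and in control TSC they were 5689 to 6807 and 2546 to 4377 CPM. Neither pair of intervals overlaps. Without replicate 2 of paused TSC, the higher of the pair, the log2 fold change was 0.90 (adjusted p = 0.211), and the call was lost. It was also lost when the miR-290 cluster was left out of TMM (0.91, adjusted p = 0.196) and with a filter at 10 CPM (0.59, adjusted p = 0.422). Without replicate 1 of control TSC it was 1.77, and without replicate 1 of paused TSC it was 1.74.

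In ESC, miR-21a-5p had 1434 and 1531 CPM in paused cells, against 2005 and 1917 CPM in control cells. Both paused libraries were below both control libraries, as was so, in either direction, of 68.4% of all tested miRNAs in this comparison. The means were 1483 ± 68.9 CPM in paused ESC and 1961 ± 62.3 CPM in control ESC (SD, n = 2 each). The log2 fold change was -0.41 ± 0.37 (SE, 95% interval -1.14 to 0.33; edgeR adjusted p = 0.438), an interval that includes both a fall and a small rise. The ratio of pooled counts, 214 in paused ESC and 74 in control ESC, was 0.751 after scaling (0.574 to 0.991, a 95% interval for counting error alone). The 2 control ESC libraries held 44 and 30 counts of it. In ESC 27.7% of the tested miRNAs were called.

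The pause effects of miR-21a-5p in the cell types were compared directly. The effect in ESC minus that in TSC was -1.37 ± 0.50 on the log2 scale (SE, 95% interval -2.36 to -0.39; edgeR adjusted p = 0.0283), and 26.2% of all tested miRNAs were called in this test. The call was lost without replicate 1 of control ESC (-1.34, adjusted p = 0.104), without replicate 2 of control ESC (-1.42, adjusted p = 0.0738) and without replicate 2 of paused TSC (-1.07, adjusted p = 0.164). It kept its sign in all 3. Without replicate 1 of control TSC it was -2.09 and called.

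**Figure D1:**
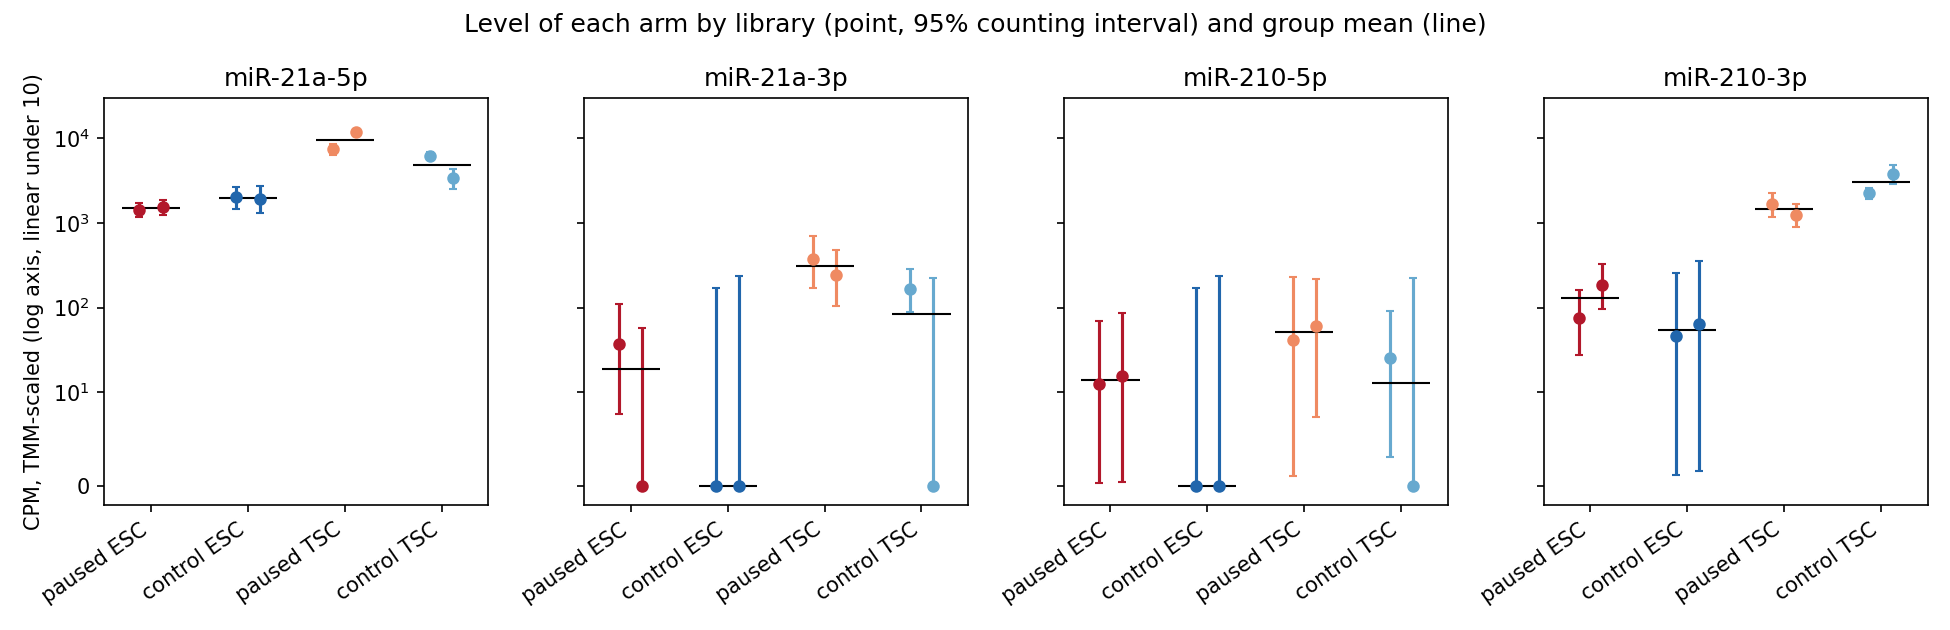
Level of each member in each of the 8 libraries, in CPM after TMM scaling, by group with paused left of control; points are libraries, vertical bars their 95% counting intervals and horizontal lines group means, on a log axis that is linear under 10 CPM. miR-21a-5p sits at 7440 and 11763 CPM in paused TSC against 6229 and 3371 CPM in control TSC, and miR-210-3p at 1653 and 1240 CPM against 2242 and 3792 CPM.

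miR-210-3p, the guide arm of the hypoxia miRNA, was lower in paused TSC than in control TSC, at a p just inside the threshold. It had 1653 and 1240 CPM in paused TSC, from 40 and 41 counts, against 2242 and 3792 CPM in control TSC, from 176 and 63 counts. Both paused libraries were below both control libraries after TMM scaling. The means were 1447 ± 292.4 CPM in paused TSC and 3017 ± 1096 CPM in control TSC (SD, n = 2 each), a log2 fold change of -1.02 ± 0.39 (SE, 95% interval -1.79 to -0.25; edgeR adjusted p = 0.0494).

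The separation of the TSC groups depended on the scaling. The TMM factor was 0.680 in replicate 1 of control TSC, the deepest library, and 0.887 to 1.15 in the other 7. As a share of all counts, miR-210-3p was 0.169% and 0.134% in paused TSC, against 0.152% and 0.336% in control TSC, so that the groups overlap. By total count alone the log2 fold change was -0.61 (adjusted p = 0.337). Without replicate 2 of control TSC, the library with 3792 CPM, it was -0.17 (adjusted p = 0.841), and without replicate 1 of control TSC it was -1.15 (adjusted p = 0.0352). With any of the other 6 libraries left out it was -0.81 to -0.63 and not called. Of the tested miRNAs 17% were called lower in paused TSC, and in 35.9% the paused libraries were all below the controls. The fold change of miR-210-3p ranked 61st lowest of the 206.

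The median log2 fold change of all 206 miRNAs in TSC was -0.39 with TMM and 0.08 by total count, so each change was also set against that median. Relative to it, miR-21a-5p was higher in paused TSC by 1.35 to 1.41 over 6 ways of scaling or fitting, and miR-210-3p stood at -0.70 to -0.59. In ESC, where the median was -0.03 with TMM, the same ranges were -0.38 for miR-21a-5p throughout and 1.22 to 1.28 for miR-210-3p. A change of scaling moves all miRNAs of a comparison nearly alike, and subtracting the median of each run removes that shift. The narrow ranges therefore cannot show whether the changes hold under other scalings. With other filters miR-21a-5p fell outside its ranges. At 10 CPM it stood at 1.23 in TSC and -0.25 in ESC, and with no filter at 1.33 and -0.11.

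In ESC miR-210-3p was near the counting floor. It had 6 and 12 counts in paused ESC, against 1 and 1 in control ESC, or 74.8 and 186 CPM against 45.6 and 63.9 CPM. Both paused libraries were above both control libraries, but each control interval, 1.15 to 254 CPM and 1.62 to 356 CPM, spans the paused values. The pooled counts of 18 and 2 give a ratio of 2.34 (95% counting interval 0.559 to 20.8), and the edgeR test gave an adjusted p of 0.385. No change was called in either direction, and a fall from 2 pooled counts would not have been detectable. The pause effect in ESC minus that in TSC was 2.22 ± 1.04 on the log2 scale (SE, edgeR adjusted p = 0.0859) and did not pass the threshold.

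**Figure D2:**
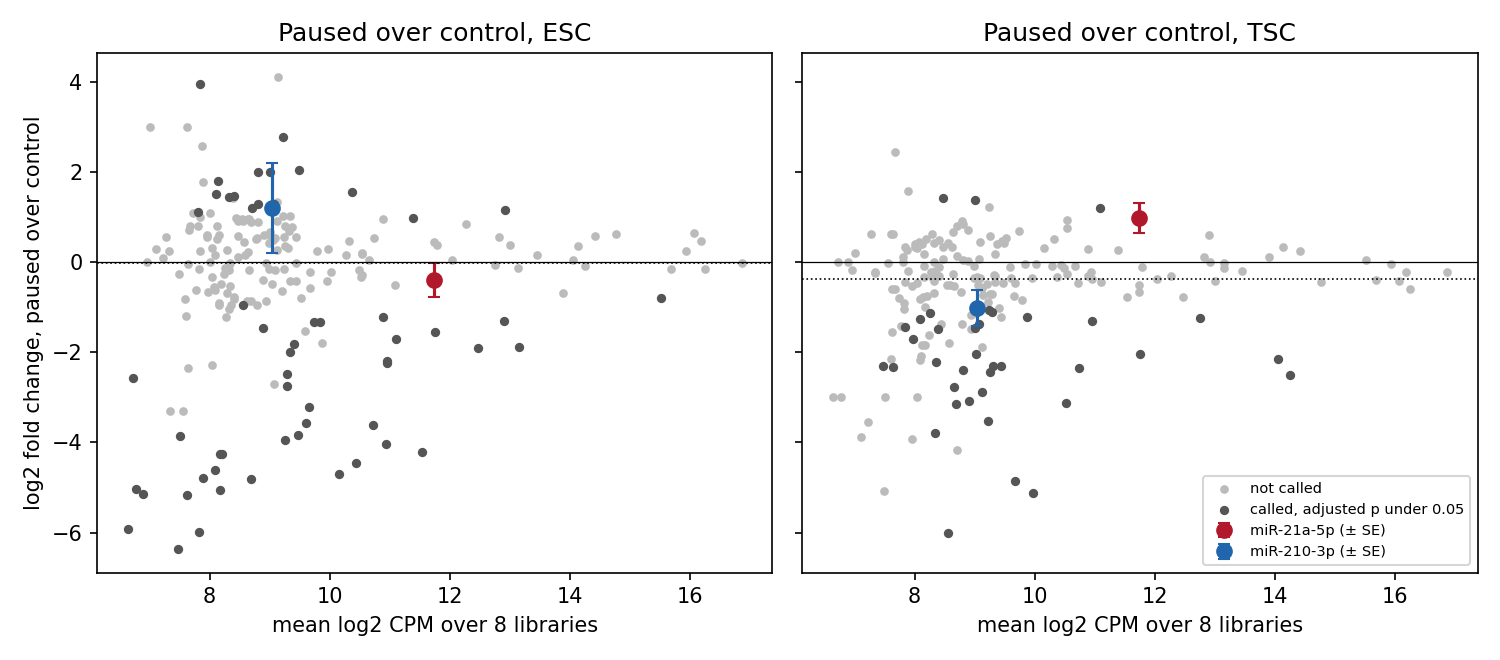
Log2 fold change of paused over control cells against mean log2 CPM over the 8 libraries for all 206 tested miRNAs, ESC left and TSC right; dark points were called, coloured points are miR-21a-5p and miR-210-3p with ± SE bars, and the dotted line is the median of all. In TSC the members stand on opposite sides of 0 (0.97 and -1.02), among 4 miRNAs called higher and 35 called lower, and in ESC neither was called.

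The balance of the leading arms can be read within each library without any scaling. There were 4.50 and 9.49 counts of miR-21a-5p for each count of miR-210-3p in paused TSC, against 2.78 and 0.889 in control TSC. Both paused TSC libraries were above both control TSC libraries. The interval of the lower paused library, 3.18 to 6.51, slightly overlaps that of the higher control library, 2.33 to 3.32. In ESC the ratio was 19.2 and 8.25 in paused cells, against 44 and 30 in control cells. The control ESC ratios rest on 1 count of miR-210-3p each, and their intervals, 7.50 to 1777 and 4.99 to 1224, overlap those of paused ESC, 8.54 to 53.3 and 4.52 to 16.5. This ratio was chosen after the values of both members were known and was not tested.

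**Figure D3:**
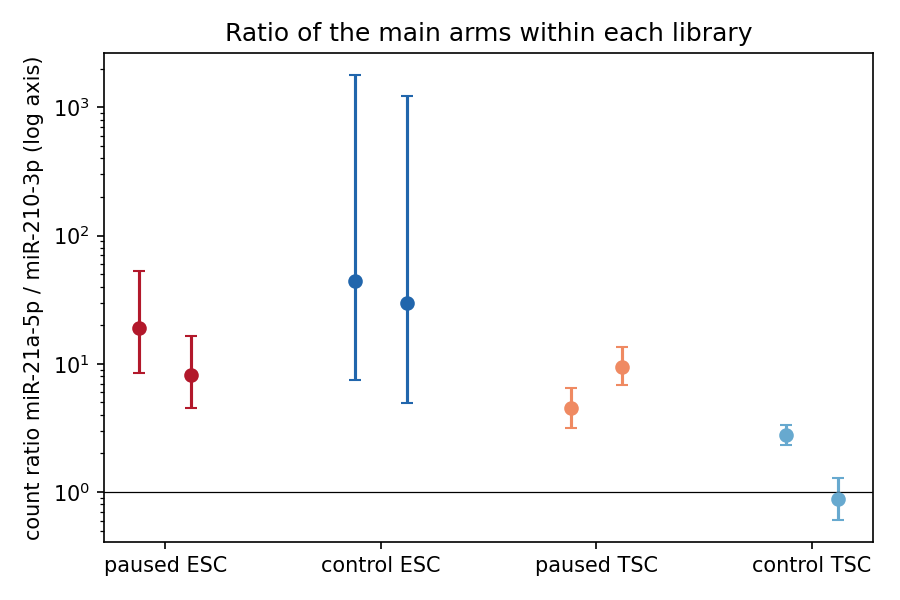
Counts of miR-21a-5p per count of miR-210-3p in each library on a log axis, with 95% exact counting intervals. The ratios were 4.50 and 9.49 in paused TSC and 2.78 and 0.889 in control TSC.

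Both leading arms were lower in ESC than in TSC in either state. miR-21a-5p was at 1483 ± 68.9 CPM in paused ESC against 9602 ± 3057 CPM in paused TSC, a log2 difference of -2.70 ± 0.35 (SE, edgeR adjusted p = 2.67e-13). In control cells it was at 1961 ± 62.3 CPM in ESC against 4800 ± 2021 CPM in TSC, a log2 difference of -1.33 ± 0.37 (SE, edgeR adjusted p = 0.000666). The libraries of ESC and TSC did not overlap in either state. Without replicate 1 of control TSC the difference in control cells was -0.54 (adjusted p = 0.220). The call was also lost with all libraries kept, with DESeq2 (-0.81, adjusted p = 0.0608), with the miR-290 cluster left out of TMM (-0.80, adjusted p = 0.131) and with no filter (-0.95, adjusted p = 0.0676). In control cells 74.3% of the tested miRNAs were called, 40.8% as lower in ESC, and in 84.5% the libraries did not overlap. In paused cells the shares were 76.7% called, 39.3% lower in ESC and 90.8% without overlap, so a difference between the cell types was the rule among these miRNAs.

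For miR-210-3p the gap between the cell types was wider. It was at 130.2 ± 78.4 CPM in paused ESC against 1447 ± 292.4 CPM in paused TSC, a log2 difference of -3.48 ± 0.48 (SE, edgeR adjusted p = 5.16e-12). In control cells the pooled counts were 2 in ESC against 239 in TSC, a ratio of 0.0212 (95% counting interval 0.00255 to 0.0773; edgeR adjusted p = 5.31e-15). Both differences passed the threshold in every alternative run, 18 of 18 each. The fold change in control cells was the 9th lowest of 206, and that in paused cells the 34th lowest. miR-210-3p passed the filter, at about 369 CPM, only through its TSC libraries, since its highest ESC library was at 186 CPM. A row kept in this way tends to come out lower in ESC, so its rank and number of calls are no separate support. With no filter the log2 difference was -5.37 in control cells and -3.13 in paused cells.

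From high to low, the group order for miR-21a-5p was paused TSC, control TSC, control ESC and paused ESC. For miR-210-3p it was control TSC, paused TSC, paused ESC and control ESC. In each order the neighbours at the ESC end did not overlap but were not called by edgeR, and the neighbours at the TSC end differed as described, with calls that some alternatives ended. Within a library miR-21a-5p ranked 17th to 24th among detected miRNAs in paused TSC, 34th to 43rd in control TSC, 43rd to 50th in paused ESC and 42nd to 46th in control ESC. miR-210-3p ranked 54th and 61st in paused TSC, 52nd and 42nd in control TSC, 212th and 162nd in paused ESC and 276th and 238th in control ESC. All members have the same length, but how well the library kit recovers each sequence was not tested. In counts, miR-21a-5p was above miR-210-3p in 7 of 8 libraries, the exception being replicate 2 of control TSC with 56 and 63 counts.

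The minor arms, usually discarded when a hairpin is processed, were rare. miR-21a-3p had 9 and 8 counts in paused TSC, against 13 and 0 in control TSC. In ESC it had 3 and 0 counts in paused cells, against 0 and 0 in control cells. Pooled over the TSC libraries, 17 and 13 counts give a paused to control ratio of 2.17 (95% counting interval 0.994 to 4.86). The pooled ratio of miR-21a-5p, computed the same way, was 1.73 (1.54 to 1.95), which lies within the interval of the minor arm. Between the cell types, paused ESC held 3 pooled counts of miR-21a-3p against 17 in paused TSC, a ratio of 0.0698 (0.0131 to 0.241). miR-210-5p had 1 and 1 counts in paused ESC, 0 and 0 in control ESC, 1 and 2 in paused TSC and 2 and 0 in control TSC. It stood at or under 3 pooled counts in every group, so no fold is given.

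The 5p arm made up 97.7% of the 1435 counts of miR-21a (95% exact binomial interval 96.8 to 98.4), and the 3p arm made up 98.0% of the 347 counts of miR-210 (95.9 to 99.2). Such a lopsided split was common among the 136 hairpins with a row for each arm and at least 100 counts over both. Of these, 36.8% were as lopsided as miR-21a or more so, and 34.6% as lopsided as miR-210 or more so. The median major arm held 94.6%. Hairpins with a minor arm at 0 were kept, and such a 0 may be a row that could not be counted. For miR-21a the 5p share was 98.6% of 217 counts in paused ESC and 100% of 74 in control ESC, 97.1% of 586 in paused TSC and 97.7% of 558 in control TSC. For miR-210 the 3p share was 90% of 20 counts in paused ESC and 100% of 2 in control ESC, 96.4% of 84 in paused TSC and 99.2% of 241 in control TSC. Exact two-sided permutation tests over libraries gave p from 0.333 to 1 for the shares, and 0.333 is the smallest p that 2 libraries against 2 allow.

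The 5 miRNAs whose level followed miR-21a-5p most closely over the 8 libraries, by Pearson's r of log2 CPM, were miR-335-5p (r = 0.975), miR-125a-5p (0.962), let-7e-5p (0.927), miR-378a-3p (0.912) and miR-362-3p (0.910). These r values share the split between ESC and TSC and carry no test. miR-335-5p, from an intron of the imprinted gene Mest, averaged 953 CPM in paused ESC, 1355 CPM in control ESC, 6014 CPM in paused TSC and 2605 CPM in control TSC. That is the same group order as miR-21a-5p. Its log2 fold change in TSC was 1.19 (edgeR adjusted p = 0.0100), and its pause effect in ESC minus that in TSC was -1.70 (adjusted p = 0.0113), so it passed the tests that miR-21a-5p passed. miR-125a-5p and let-7e-5p, made from 1 cluster together with miR-99b, had TSC log2 fold changes of 0.94 (adjusted p = 0.0519) and 0.32 (adjusted p = 0.633), and neither passed. Nor did miR-378a-3p (0.45, edgeR adjusted p = 0.493) or miR-362-3p (-0.09, edgeR adjusted p = 0.929) in TSC.

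The 5 most like miR-210-3p were miR-322-3p (r = 0.984), let-7g-5p (0.979), miR-322-5p (0.976), miR-503-3p (0.975) and let-7d-5p (0.968). Of these, 3 are arms of the X-linked cluster of miR-322 and miR-503, which is abundant in trophoblast stem cells. miR-322-5p averaged 46054 CPM in paused TSC against 108477 CPM in control TSC, a log2 fold change of -1.24 (edgeR adjusted p = 0.00120). let-7g-5p averaged 1047 CPM in paused TSC against 2146 CPM in control TSC (log2 fold change -1.06, adjusted p = 0.0410), and let-7d-5p 352 against 942 CPM (-1.44, adjusted p = 0.0233). The TSC changes of miR-322-3p (-0.74, adjusted p = 0.144) and miR-503-3p (-0.60, adjusted p = 0.429) did not pass. Over the same 8 libraries miR-21a-5p and miR-210-3p correlated with each other at r = 0.77, below all 10 of these values.

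**Figure D4:**
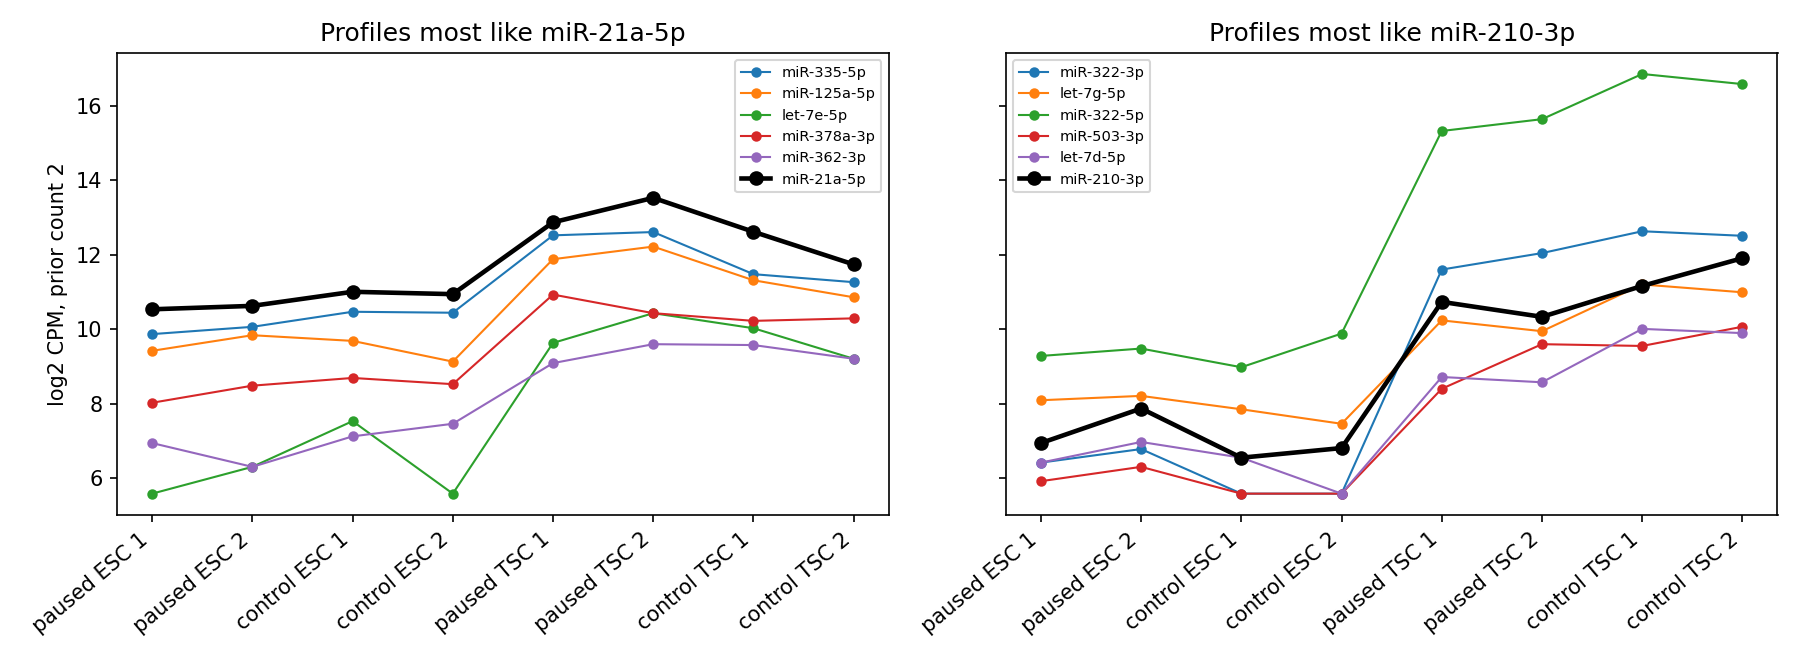
Log2 CPM of each leading arm and of the 5 miRNAs most like it in the 8 libraries; lines only join the points of 1 miRNA and stand for no order. The likeness to miR-335-5p (r = 0.975) and to miR-322-3p (r = 0.984) includes the step between ESC and TSC.

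Other miRNAs linked to hypoxia were read beside miR-210-3p. Of the 21 listed, 5 had no count in any library. miR-24-3p, 1 of these, is from the cluster of miR-23a-3p, which held 2306 pooled counts. What became of multi-mapping reads is not given, so a row at 0 may not mean absence. Among those listed, 12 were tested. The list was not sorted by the direction in which hypoxia moves each member, so its counts and medians are no readout of hypoxia. In paused TSC 0 were called higher and 3 lower, with a median log2 fold change of -0.28 beside -0.39 over all tested miRNAs, of which 1.94% were called higher and 17% lower. The 3 were miR-322-5p, miR-429-3p, a member of the epithelial miR-200 family (339 ± 222 CPM in paused TSC against 779 ± 250 CPM in control TSC, log2 fold change -1.38, edgeR adjusted p = 0.0258), and miR-20b-5p. The last had 0 counts in paused TSC against 10 in control TSC, at least 2.01-fold lower when paused TSC is set at 3 pooled counts. All 10 came from replicate 1 of control TSC, and replicate 2 was at 0 like both paused libraries. In paused ESC 2 were called higher and 0 lower, with a median of 0.13 beside -0.03, where 8.25% of all tested were called higher and 19.4% lower. They were miR-429-3p and miR-26b-5p. miR-429-3p was at 774 ± 175 CPM in paused ESC against 319 ± 0.370 CPM in control ESC (log2 fold change 1.28, edgeR adjusted p = 0.0374). These levels rest on 114 and 12 pooled counts, so the SD in control ESC is below counting error. miR-26b-5p had 65 pooled counts in paused ESC against 1 in control ESC, a ratio of 16.9 (2.92 to 676 as 95% counting interval).

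Of 10 miRNAs linked to NF-kB or STAT3, 0 passed the filter, and their summed level was 387 to 549 CPM in paused ESC, 410 to 511 CPM in control ESC, 372 to 544 CPM in paused TSC and 602 to 726 CPM in control TSC. Of 4 that target Mtor itself, miR-99b-5p was the 1 tested: it averaged 934 ± 81.3 CPM in paused TSC against 311 ± 100.0 CPM in control TSC (log2 fold change 1.42, edgeR adjusted p = 0.0172), and 200 ± 1.12 CPM in paused ESC against 169 ± 148 CPM in control ESC (0.12, adjusted p = 0.923). Of 10 linked to p53, both tested members are arms of miR-34a, a brake on the cell cycle. miR-34a-5p fell in ESC, to 1145 ± 174 CPM in paused cells against 4288 ± 263 CPM in control cells (log2 fold change -1.90, adjusted p = 1.82e-06), and miR-34a-3p likewise (-1.83, adjusted p = 0.00185). In TSC their log2 fold changes were -0.78 (adjusted p = 0.0778) and -1.02 (adjusted p = 0.0512).

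Markers of other cell types were read beside these results, since miR-21 is abundant in fibroblasts, which can serve as feeders for TSC. Of 12 fibroblast or smooth muscle markers, 3 were tested and 0 were called by edgeR in either cell type (median log2 fold change -0.03 in ESC and -0.24 in TSC). Their summed level was 10375 to 12519 CPM in paused TSC against 9992 to 15618 CPM in control TSC, and 2042 to 2382 CPM in paused ESC against 1726 to 2005 CPM in control ESC. Most of this in TSC was miR-22-3p, a miRNA of many tissues, at 10774 ± 1442 CPM in paused TSC against 11548 ± 3648 CPM in control TSC (log2 fold change -0.11, edgeR adjusted p = 0.866). The other tested markers were miR-143-3p and miR-152-3p. miR-143-3p averaged 267 ± 207 CPM in paused TSC against 471 ± 325 CPM in control TSC (log2 fold change -1.18, edgeR adjusted p = 0.0949). miR-152-3p averaged 370 ± 289 CPM in paused TSC against 487 ± 76.8 CPM in control TSC (-0.24, edgeR adjusted p = 0.839). Below the filter, miR-145a-5p averaged 0 CPM in paused TSC against 100.2 CPM in control TSC, miR-199b-5p 20.7 against 105 CPM, and miR-214-3p 15.1 against 44.6 CPM, each from at most 12 pooled counts in a TSC group. miR-199a-3p, miR-199a-5p and miR-125b-5p were at 0 in all 8 libraries. As for miR-24-3p above, such a 0 may not mean absence, since the treatment of multi-mapping reads is not given. The endothelial markers (2 of 2 tested, 0 called) summed to 1845 to 2273 CPM in paused TSC against 2943 to 3070 CPM in control TSC, and to 960 to 975 CPM in paused ESC against 831 to 911 CPM in control ESC. The blood cell markers summed to 331 to 393 CPM in paused TSC against 181 to 611 CPM in control TSC, with 0 of 3 tested called, and to 4687 to 5312 CPM in paused ESC against 7839 to 9778 CPM in control ESC, with 1 called higher and 2 lower. No neuron, muscle, or hepatocyte or endoderm marker passed the filter, and these lists summed to at most 30.9, 89.2 and 256 CPM in any library. Of their rows, 4 of 5, 2 of 4 and 4 of 5 were at 0 in every library. Whether those rows could be counted is not known, so the sums do not show that these cells were absent. Of the stem cell markers, 4 of 15 tested embryonic ones were called lower in ESC and 0 in TSC, and of 8 tested trophoblast ones 4 were called lower in ESC and 2, miR-322-5p and miR-503-5p, in TSC. Over all tested miRNAs 19.4% were called lower in ESC and 17% in TSC. The part of these markers in the changes of miR-21a-5p and miR-210-3p was not tested.

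**Figure D5:**
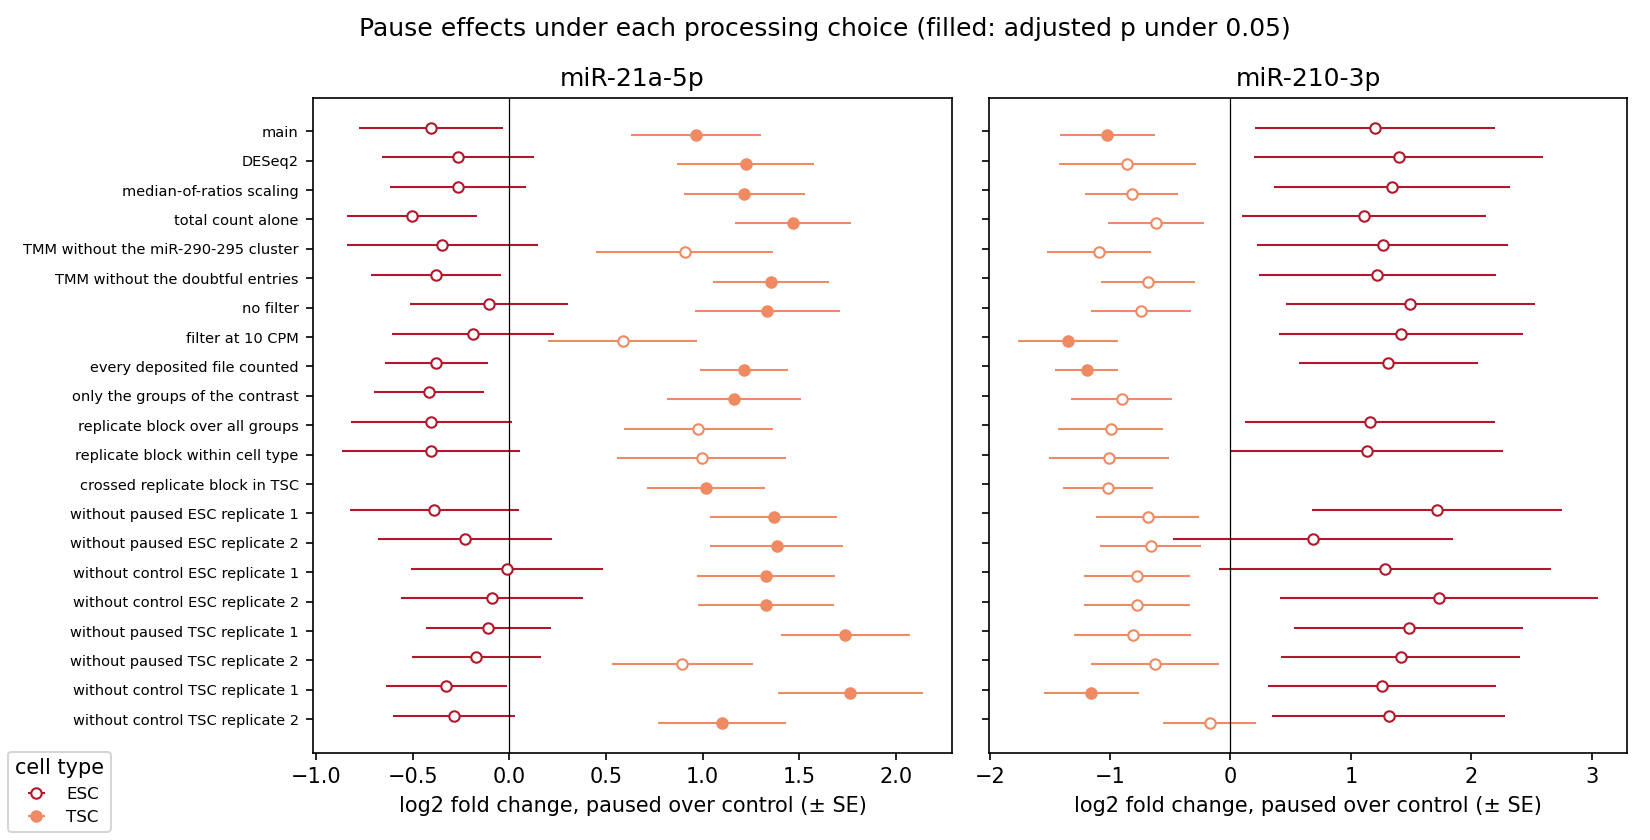
Log2 fold change of paused over control cells (± SE) for the leading arms under each processing choice, ESC and TSC in different colours, filled where the adjusted p was under 0.05. For miR-21a-5p in TSC all 20 alternatives lie above 0 and 15 are called, and for miR-210-3p in TSC all 20 lie below 0 and 3 are called. The 20 include a run with identical files counted as replicates and a crossed pairing chosen after seeing the data.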

How the data were processed

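The deposited files hold counts, 1 whole number per mature miRNA arm, which the authors made from small RNA reads. The submitters' processing notes name the mouse build GRCm38. How reads were aligned and counted, which miRNA annotation was used and what became of multi-mapping reads is not given in the sources used here. Libraries were made with a SMARTer small RNA kit without molecular identifiers that the labels mention.

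Counts of the 8 distinct libraries were scaled by TMM and fitted with edgeR 4.0.16 in R 4.3.3 (filterByExpr with a minimum of 10 counts, about 369 CPM; 206 miRNAs tested; 1 mean per group; common dispersion 0.0456; 4 residual degrees of freedom). The quasi-likelihood test was two-sided, with Benjamini-Hochberg adjustment over all 206, and a miRNA was called at an adjusted p under 0.05. An SE is the log2 fold change divided by the square root of F, and 95% intervals follow from it. Both rest on a spread pooled over miRNAs, not on the residual degrees of freedom of 1 miRNA alone. Fold changes use edgeR's group means, and r uses log2 CPM with a prior count of 2. The procedure was tested on simulated data drawn with the same spread for every miRNA, so that test does not cover a spread that differs between miRNAs. Sequences are from RefSeq and gene overlaps from GENCODE M21. The miRNAs named are the 4 members, the 5 most like each tested member, their seed relatives and up to 4 called members of each pathway list. Marker examples were picked with their values in view. The result of 1 pathway list is not reported here. The members and lists were chosen with earlier results of these data known.

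The alternatives were DESeq2 1.42.0, other scalings, other filters, every file counted, leaving out each library in turn, a block for the replicate number, and fits on the groups compared.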

Additional observations from a re-analysis of the deposited data

Results flagged for a closer look

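The pause effect of miR-21a-5p differed between the cell types in the main fit, by a test of the difference itself. The call held in 11 of 19 alternatives. The log2 fold change of paused over control cells in ESC minus that in TSC was -1.37 ± 0.50 (SE, edgeR adjusted p = 0.0283). miR-21a-5p was lower in both paused ESC libraries than in both control ESC libraries, and higher in both paused TSC libraries than in both control TSC libraries. Paused and control libraries did not overlap in 68.4% of all tested miRNAs in ESC and in 48.5% in TSC. The change of miR-21a-5p in ESC was itself not called (edgeR adjusted p = 0.438). Of all tested miRNAs 26.2% passed the same test.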

How the results depend on the processing

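No result changed sign in the alternatives run. In ESC neither leading arm was called in any of them; miR-210-3p was not tested in the fit on ESC alone. In TSC miR-21a-5p was called in 15 of 20: it was lost when the miR-290 cluster was left out of TMM (0.91, adjusted p = 0.196) and with a filter at 10 CPM (0.59, adjusted p = 0.422), and with 1 library left out it ranged from 0.90 to 1.77. The 20 include a run with identical files counted as replicates and a crossed pairing chosen after seeing the data. miR-210-3p in TSC was called in 3 of 20. It was lost with DESeq2 (-0.86, adjusted p = 0.552), median-of-ratios scaling (-0.82), total count (-0.61), TMM without that cluster (-1.09), TMM without entries of doubtful origin (-0.69), no filter (-0.74) and a fit on the TSC groups alone (-0.90), and with 1 library left out it ranged from -1.15 to -0.17, called only without replicate 1 of control TSC. The difference of pause effects of miR-21a-5p was called in 11 of 19. It was lost with TMM without the cluster (-1.25), no filter (-1.44) and a filter at 10 CPM (-0.77), with a range of -2.09 to -1.07 over libraries left out. The difference of pause effects of miR-210-3p was called with every file counted (2.51, adjusted p = 0.0142), which counts identical files as replicates. The difference of miR-21a-5p between control ESC and control TSC was lost with DESeq2 (-0.81), TMM without the cluster (-0.80) and no filter (-0.95), and ranged from -1.23 to -0.54 over libraries left out. The causes were not tested.

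The replicate numbers do not show that samples were paired: deviations of same-numbered libraries correlated at -0.07 in ESC and -0.18 in TSC, over 2 pairs each. With the number as a block over all groups, or within cell type, miR-21a-5p in TSC gave 0.98 and 1.00 (adjusted p = 0.0816 and 0.159), miR-210-3p in TSC -0.99 and -1.01 (0.128 and 0.216), and the difference of pause effects of miR-21a-5p -1.38 and -1.40 (0.0588 and 0.117), none called. A crossed pairing in TSC, chosen after seeing the data, called 25 miRNAs in TSC, with miR-210-3p at -1.02 (adjusted p = 0.0530).

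Counts of called miRNAs moved from 57 in ESC to between 37 and 94, from 39 in TSC to between 12 and 55, from 54 for the difference to between 30 and 90, from 153 for control ESC against control TSC to between 100 and 169, and from 158 for paused cells to between 141 and 229. With 1 library left out they ran from 41 to 75, 7 to 32, 26 to 65, 122 to 157 and 152 to 183. Runs differed in how many miRNAs they tested, so these numbers of calls do not share 1 total. The main run tested 206, the fit on control cells alone 131, the fit on TSC alone 135, the filter at 10 CPM 486 and no filter 648. miR-210-3p had 1 to 63 counts in 7 of the libraries, which limits its precision, beside the spread between libraries and the scaling.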
